A study of Mus musculus with 10 samples.

Results

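The 10 genes described here, Bdnf, Vgf, Rem2, Dusp4, Dusp5, Nptx2, Inhba, Homer1, Spry2 and Etv4, encode secreted factors, synaptic proteins, a channel regulator, phosphatases and other effectors that nerve cells make in the hours after stimulation. They were picked by name from a table of 35275 mouse genes, all 10 were present and all 10 were among the 17435 genes that passed the filter on low counts. The retinas came from C57BL/6 mice aged 10 to 12 weeks, and RNA was sequenced from 5 vigabatrin libraries (140 mg/kg/day for 11 days, delivered by a pump implanted under the skin) and 5 vehicle libraries. The titles of the vehicle libraries call them untreated, and no label ties a library to its own animal, so the spread given here is that between libraries. Each library is named by its group and the number in its title. Vigabatrin blocks GABA transaminase, the enzyme that degrades the inhibitory transmitter GABA. The genes were chosen after their difference between vigabatrin and vehicle libraries had been looked at, so that difference is given below as a description, and counts of calls in it support nothing.

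Firing and calcium entry switch on genes in 2 waves. The first wave consists largely of transcription factors such as Fos, Egr1 and Npas4. The second consists of effectors that change the cell itself, its synapses and its neighbours, and it draws on CREB and serum response factor at the promoter as well as on the first-wave factors. Part of this output runs through the ERK kinases, which the DUSP and Sprouty proteins in turn restrain. In the retina, BDNF is known as a survival factor for ganglion cells, the neurons whose axons form the optic nerve.

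Promoter sequences are shown for the 3 genes in which a match to a recognition site of these factors was found. Sites of this kind are known to carry activity to such genes, but whether the matches shown here do so was not tested. RefSeq windows on GRCm38.p6, the assembly that mm10 names, matched 6 of the 10 genes and ran from 250 bases before to 50 after each annotated start, 13 windows in all, 7 of them for Bdnf and 2 for Homer1. Vgf, Dusp4, Nptx2 and Etv4 had no entry. The search on both strands used TGACGT, the core of the cAMP response element, the whole element TGACGTCA, which contains it, the CArG box that serum response factor binds, the AP-1 motif TGANTCA and the EGR motif GCGTGGGCG. TGACGT lay in 3 of the 13 windows, 1 each of Bdnf, Dusp5 and Homer1, against 7.51% of all 32851 windows. A CArG box lay in 1 of the 13, that of Dusp5, which held 2 adjoining ones, against 1.63% of all windows. TGANTCA was found in 1 Bdnf window (7.81% of all), and TGACGTCA and GCGTGGGCG in none of the 13 (1.79% and 0.612% of all). Each stretch below has 150 bases, is written 5′ to 3′ on the plus strand and lies before an annotated start. The Bdnf and Homer1 stretches end at the base before the RefSeq start, and the Dusp5 stretch ends before 53529109, the first base of the gene in the deposited table, which lies upstream of its RefSeq start. Capitals mark TGACGT, which reads ACGTCA when it lies on the other strand, and in Dusp5 also the CArG boxes.
Bdnf, chr2:109692286-109692435: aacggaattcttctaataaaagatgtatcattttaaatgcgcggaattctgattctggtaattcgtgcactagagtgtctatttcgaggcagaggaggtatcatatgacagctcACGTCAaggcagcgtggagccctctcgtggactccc
Dusp5, chr19:53528959-53529108: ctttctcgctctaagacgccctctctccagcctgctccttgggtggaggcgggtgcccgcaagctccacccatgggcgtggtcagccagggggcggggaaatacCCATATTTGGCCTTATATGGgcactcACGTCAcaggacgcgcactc
Homer1, chr13:93303607-93303756: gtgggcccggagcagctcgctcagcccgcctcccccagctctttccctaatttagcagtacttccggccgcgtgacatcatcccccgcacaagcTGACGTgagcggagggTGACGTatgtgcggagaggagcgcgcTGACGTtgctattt
Homer1 held 3 copies of TGACGT and Bdnf and Dusp5 1 copy each. A match is a run of letters and not a shown binding site, and the windows of Rem2, Inhba and Spry2 held none of the 5 motifs.

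Total counts ranged from 39766262 to 54052502 in the vigabatrin libraries and from 36056135 to 52181425 in the vehicle libraries. Levels are given as CPM, read counts scaled to a common library size with TMM factors. Rod markers summed to 52900 to 57900 CPM in vigabatrin libraries and 54100 to 59100 CPM in vehicle libraries, and ganglion cell markers to 829 to 960 CPM and 811 to 914 CPM in the same order, so every library carried retinal transcripts. In vigabatrin 2344 and 2429 and in vehicle 835 and 1582, transcripts of the lens, a neighbouring tissue, summed to 13100 to 20500 CPM, against 4.26 to 1251 CPM in the other 6 (18 of 20 listed markers tested, 1 at 0 in every library). These 4 are called lens-rich, a grouping read from these same counts and not from the labels. Pigment epithelium and choroid markers were highest in vehicle 835, at 1698 CPM, against 21.4 to 765 CPM in the other 9. Vehicle 2345 is the only vehicle library numbered within the range of the vigabatrin ones, and the other 4 vehicle libraries carry lower numbers (832 to 1582), so that a cohort of higher numbers and the drug cannot be told apart except through vehicle 2345.

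Across the 10 genes, 6 had lower means in vigabatrin than in vehicle libraries (Bdnf, Vgf, Rem2, Dusp4, Dusp5 and Etv4), with log2 fold changes between -0.89 and -0.325. The other 4 (Nptx2, Inhba, Homer1 and Spry2) lay between 0.02 and 0.14. The median over the 10 was -0.335, against -0.00134 over all genes tested, of which 50.6% had lower fitted means. In 2 of the 10, Rem2 and Etv4, every vigabatrin library lay below every vehicle library, as was the case for 0.631% of all genes tested. None of the 10 had every vigabatrin library above every vehicle library, which 0.849% of all genes did. None of the 10 passed an adjusted p of 0.05 in edgeR's quasi-likelihood test, which called 0.00574% of genes (1 gene, St8sia2), and the 6 lower genes had unadjusted p under 0.05, as did 3.69% of all genes with lower and 3.68% with higher values. DESeq2's Wald test called 3 of the 10, Vgf, Rem2 and Etv4, and 0.519% of genes, and limma-voom called none of the 10 and 0.0172% of genes. These counts are part of what led to the choice of the genes. Markers of neighbouring tissues also differed between the groups, though not in a common direction. In vigabatrin libraries those of pigment epithelium, choroid and cornea were mostly lower and those of lens higher. Of these markers edgeR called 0. At an unadjusted p under 0.05 there were 4 pigment epithelium and choroid and 4 cornea markers lower and 0 lens markers. Of the pigment epithelium and choroid markers 11 of 12 were lower (median log2 fold change -1.04), with sums of 21.4 to 765 CPM in vigabatrin libraries and 36.4 to 1698 CPM in vehicle libraries. All 5 cornea markers tested were lower (median -1.55) and all 18 lens markers tested were higher (median 0.306). With the lens and pigment epithelium levels as further terms, the 6 lower genes had log2 fold changes of -0.925 to -0.311, and the part of cornea was not tested. In whole retina, fewer cells of a type cannot be told apart from less RNA per cell.

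**Figure D1:**
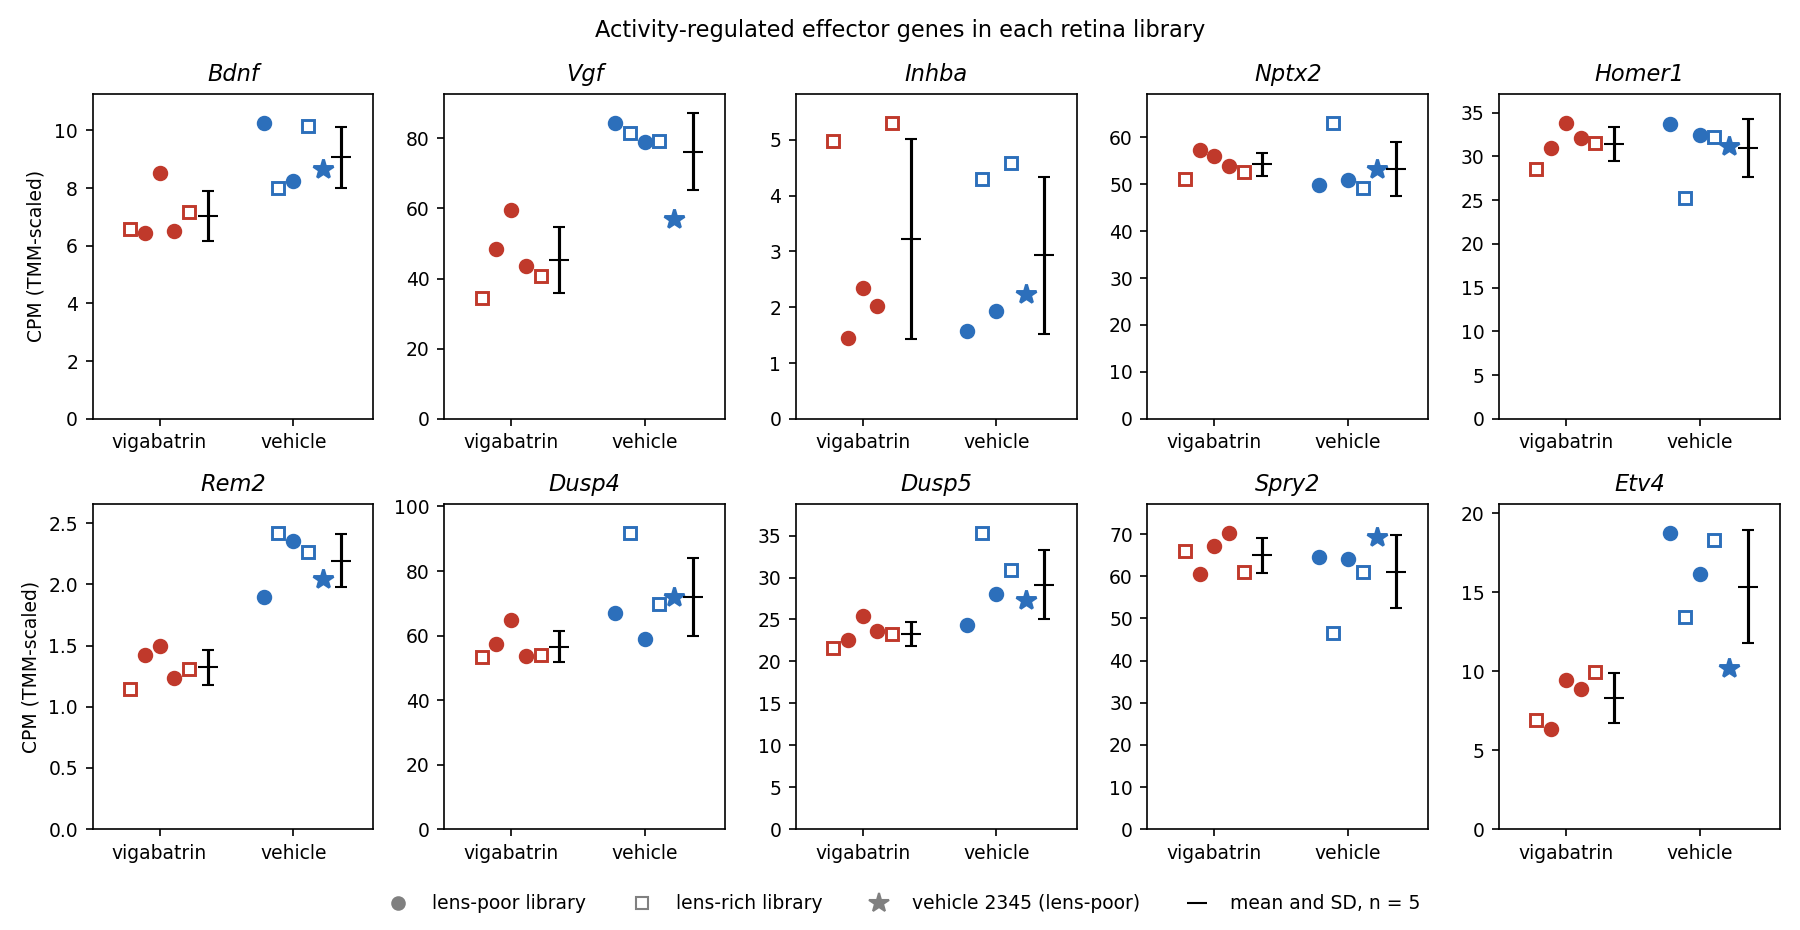
TMM-scaled CPM of the 10 genes in each library (vertical axes from 0), vigabatrin at left and vehicle at right in each panel, with open squares for lens-rich libraries, a star for vehicle 2345 and bars for the mean and SD of 5 libraries. Rem2 and Etv4 have no overlap between groups, and Inhba separates the lens-rich from the lens-poor libraries in both groups.

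Among the secreted factors, Bdnf encodes brain-derived neurotrophic factor, a ligand of the TrkB receptor that supports neuronal survival and synaptic plasticity. It had 6.58, 6.43, 8.51, 6.53 and 7.18 CPM in vigabatrin 2344, 2347, 2349, 2428 and 2429, against 10.2, 8.02, 8.25, 10.2 and 8.67 CPM in vehicle 832, 835, 1580, 1582 and 2345. Of the vigabatrin libraries, 4 lay below all vehicle libraries, and vigabatrin 2349 overlapped vehicle 835 and 1580. The means were 7.04 ± 0.869 CPM in vigabatrin libraries and 9.07 ± 1.06 CPM in vehicle libraries (SD, n = 5 each), a ratio of 0.777 (log2 fold change -0.36, SE 0.11). Without the 4 lens-rich libraries the log2 fold change was -0.34 (SE 0.13). Bdnf (ENSMUSG00000048482, mm10 chromosome 2, 109674700 to 109727007, plus strand) is transcribed from several starts that share their coding exon. The deposited count sums them, so the start with the TGACGT match above could not be followed separately.

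Vgf encodes a precursor that neurons cut into several secreted peptides and that was first found through its induction by nerve growth factor. It had 34.5, 48.3, 59.6, 43.7 and 40.8 CPM in vigabatrin 2344, 2347, 2349, 2428 and 2429, against 84.3, 81.7, 79.0, 79.3 and 57.0 CPM in vehicle 832, 835, 1580, 1582 and 2345. The first 4 vehicle libraries were close together and above every vigabatrin library, whereas vehicle 2345 lay below vigabatrin 2349. The means were 45.4 ± 9.39 CPM in vigabatrin libraries and 76.2 ± 11.0 CPM in vehicle libraries (SD, n = 5 each), a ratio of 0.595 (log2 fold change -0.75, SE 0.14). With the range of title numbers as a further term, which leaves vehicle 2345 as the comparison, the log2 fold change was -0.33 (SE 0.21). It was -0.54 without the 4 lens-rich libraries and -1.09 within them. Vgf (ENSMUSG00000037428) lies on mm10 chromosome 5, 137026392 to 137033351, on the plus strand.

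Inhba encodes the beta-A subunit from which activin A is built, a ligand of the TGF-beta family that is induced in active hippocampal neurons. It was scarce, with 58 to 287 counts a library. It had 4.98, 1.45, 2.35, 2.03 and 5.30 CPM in vigabatrin 2344, 2347, 2349, 2428 and 2429, against 1.57, 4.31, 1.94, 4.59 and 2.24 CPM in vehicle 832, 835, 1580, 1582 and 2345. The 4 lens-rich libraries were the 4 highest, in both groups, and the vigabatrin and vehicle libraries overlapped throughout. The log2 fold change between vigabatrin and vehicle was 0.14 with an SE of 0.41, and 0.03 (SE 0.21) without the lens-rich libraries.

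The lens-rich libraries fall 2 in each group, and the choice of the 10 genes rested on the treatment difference, so this contrast was tested, with treatment as a further term. Inhba rose in them, at 4.8 ± 0.436 CPM (SD, n = 4) in lens-rich and 1.93 ± 0.358 CPM (SD, n = 6) in the other libraries, with a log2 fold change of 1.31, an SE of 0.14 and an adjusted p of 0.000122 over all genes (edgeR quasi-likelihood test). That test called 6.02% of genes higher and 0.281% lower in lens-rich libraries, so Inhba was 1 of 1049 higher genes. Inhba was also the only one of the 10 without overlap, with every lens-rich library above every other, as 5.42% of all genes were, and none of the 10 lay wholly below, as 1.69% did. The other 9 were not called, with log2 fold changes from -0.18 for Spry2 (SE 0.08, adjusted p = 0.245) to 0.12 for Dusp5 (SE 0.09, adjusted p = 0.452). At an unadjusted p under 0.05 there was 1 lower gene among the 10 (7.5% of all genes) and none besides Inhba was higher (12.8% of all genes), and DESeq2 likewise called only Inhba. Cornea markers were also higher in these libraries, at 25.3 to 32.8 CPM in the lens-rich and 0.872 to 19.1 CPM in the others, and pigment epithelium and choroid markers had 155 to 1698 CPM in the lens-rich and 21.4 to 226 CPM in the others. The part of lens, cornea, pigment epithelium or any other carried-over tissue in the Inhba level was not tested. Inhba (ENSMUSG00000041324) lies on mm10 chromosome 13, 16011851 to 16027211, on the plus strand.

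Among the 6 lens-poor libraries Inhba also lay nearly in the order of lens level. In order of rising lens markers, Inhba was 1.45 CPM in vigabatrin 2347, 1.57 in vehicle 832, 2.03 in vigabatrin 2428, 1.94 in vehicle 1580, 2.24 in vehicle 2345 and 2.35 in vigabatrin 2349. Against the log2 lens level Pearson's r was 0.961 (exact two-sided permutation p = 0.00556, adjusted over the 10 genes 0.0556) and Spearman's rho 0.943 (exact p = 0.0167, adjusted 0.167). Neither passed after adjustment, and the relation was looked for after the values had been seen. Without vigabatrin 2347 and 2349, the 2 libraries farthest from the median lens level, r was 0.916 over 4 libraries. Among the other 9 genes the smallest adjusted p for r was 0.389. Pigment epithelium and choroid markers ran the other way among these 6 libraries. They summed to 226 CPM in vigabatrin 2347 and 222 CPM in vehicle 832, where Inhba was lowest. In vehicle 1580 and 2345 and vigabatrin 2428 and 2349 they summed to 40.2, 36.4, 23.0 and 21.4 CPM. Their relation with Inhba was not tested.

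**Figure D2:**
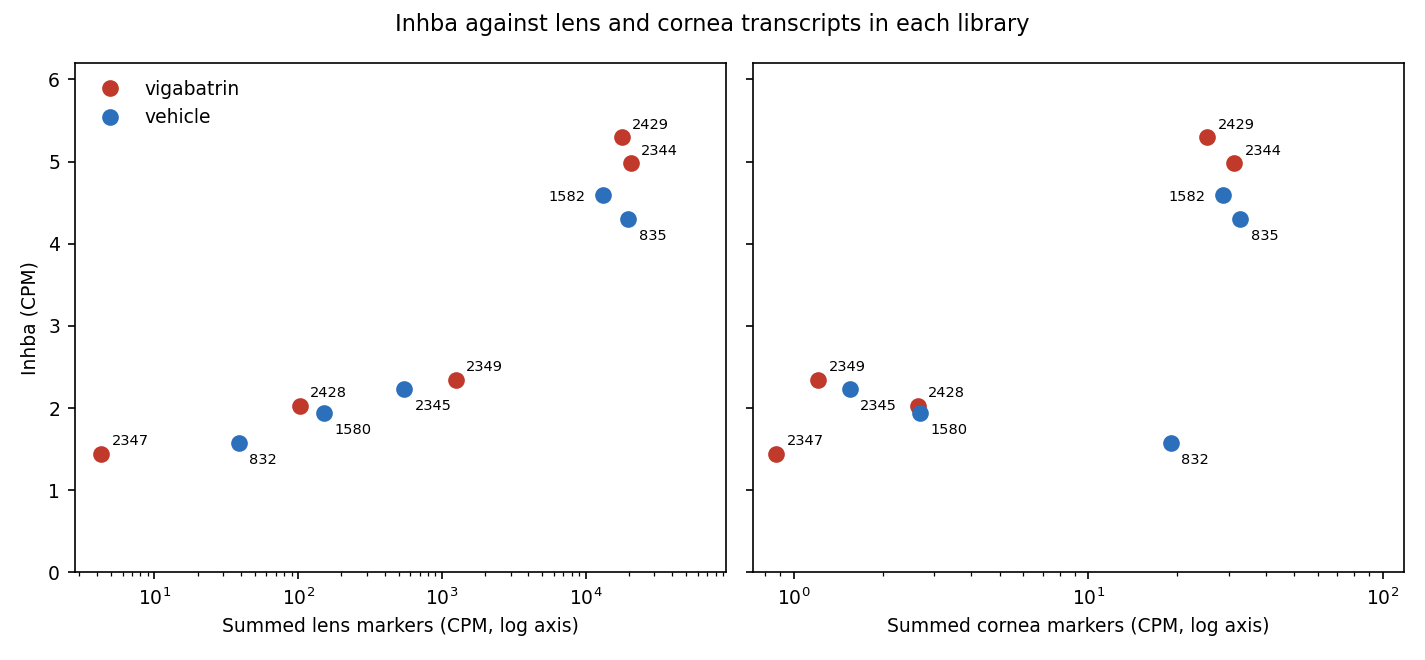
Inhba (CPM, vertical axis from 0) against summed lens markers (left) and summed cornea markers (right) in each library (CPM, log axes), with points labelled by title number. The 4 lens-rich libraries sit between 4.31 and 5.30 CPM of Inhba. Vehicle 832 has 1.57 CPM of Inhba and 38.6 CPM of lens markers. Its cornea markers, at 19.1 CPM, are below those of every lens-rich library. The part of either tissue was not tested.

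At the synapse, Nptx2 encodes a secreted pentraxin that gathers AMPA receptors at excitatory synapses. It had 51.2, 57.3, 56.0, 53.9 and 52.5 CPM in vigabatrin 2344, 2347, 2349, 2428 and 2429, against 49.9, 63.0, 50.9, 49.2 and 53.2 CPM in vehicle 832, 835, 1580, 1582 and 2345. The groups overlapped, and vehicle 835 was the highest of the 10 libraries. The means were 54.2 ± 2.51 CPM in vigabatrin libraries and 53.2 ± 5.66 CPM in vehicle libraries (SD, n = 5 each; log2 fold change 0.03, SE 0.07). The log2 fold change was 0.12 (SE 0.04) without the lens-rich libraries and -0.11 (SE 0.13) within them, so the sign differed between these subsets. Nptx2 (ENSMUSG00000059991) lies on mm10 chromosome 5, 144545887 to 144557478, on the plus strand.

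Homer1 encodes scaffold proteins that tie metabotropic glutamate receptors to intracellular calcium stores. Its long forms are made constitutively, and the short form Homer1a, made by early termination within the gene, is the one that activity induces. The count sums all forms. It had 28.6, 31.0, 33.8, 32.1 and 31.5 CPM in vigabatrin 2344, 2347, 2349, 2428 and 2429, against 33.7, 25.3, 32.4, 32.2 and 31.1 CPM in vehicle 832, 835, 1580, 1582 and 2345. All libraries but vehicle 835 lay between 28.6 and 33.8 CPM. The log2 fold change was 0.02 (SE 0.08), and without vehicle 835 it was -0.04 (SE 0.05). Homer1 (ENSMUSG00000007617) lies on mm10 chromosome 13, 93303757 to 93404129, on the plus strand, and a difference in Homer1a alone could not be read from this sum.

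Rem2 encodes a small GTPase of the RGK family, which lowers currents through high-voltage-activated calcium channels and restrains dendritic branching. It was the scarcest of the 10, with 51 to 114 counts a library. It had 1.15, 1.42, 1.5, 1.23 and 1.31 CPM in vigabatrin 2344, 2347, 2349, 2428 and 2429, against 1.90, 2.42, 2.35, 2.26 and 2.04 CPM in vehicle 832, 835, 1580, 1582 and 2345. The groups did not overlap, and vehicle 2345 lay above all vigabatrin libraries. The means were 1.32 ± 0.143 CPM in vigabatrin libraries and 2.20 ± 0.217 CPM in vehicle libraries (SD, n = 5 each), a ratio of 0.603 (log2 fold change -0.73, SE 0.12). The log2 fold change was -0.598 (SE 0.16) without the lens-rich libraries and -0.63 (SE 0.20) with the range of title numbers as a term. Rem2 (ENSMUSG00000022176) lies on mm10 chromosome 14, 54476100 to 54480431, on the plus strand.

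The remaining 4 genes are outputs of ERK signalling. Dusp4 and Dusp5 encode nuclear phosphatases that inactivate MAP kinases, with ERK the known substrate of DUSP5. Dusp4 had 53.3, 57.4, 64.7, 53.8 and 53.9 CPM in vigabatrin 2344, 2347, 2349, 2428 and 2429, against 67.1, 91.7, 59.0, 69.9 and 71.8 CPM in vehicle 832, 835, 1580, 1582 and 2345. Dusp5 had 21.6, 22.5, 25.4, 23.6 and 23.3 CPM in the same vigabatrin libraries, against 24.3, 35.3, 28.0, 30.9 and 27.3 CPM in the same vehicle libraries. In both genes vigabatrin 2349 alone overlapped the vehicle libraries, through vehicle 1580 for Dusp4 and vehicle 832 for Dusp5, and vehicle 835 was the highest. Dusp4 averaged 56.6 ± 4.8 CPM in vigabatrin libraries and 71.9 ± 12.1 CPM in vehicle libraries, and Dusp5 averaged 23.3 ± 1.4 CPM in vigabatrin libraries and 29.2 ± 4.13 CPM in vehicle libraries (SD, n = 5 each). The log2 fold changes were -0.345 (SE 0.10) for Dusp4 and -0.325 (SE 0.09) for Dusp5.

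Both DUSP genes gave smaller values once vehicle 835 or the lens-rich libraries were set aside. Vehicle 835 also had the most pigment epithelium and choroid transcripts. Without it the log2 fold change was -0.24 for Dusp4 and -0.25 for Dusp5. Without the 4 lens-rich libraries it was -0.17 (SE 0.08) for Dusp4 and -0.15 (SE 0.07) for Dusp5, and within those 4 it was -0.59 and -0.56. The difference between these subsets was not tested, and the part of carried-over tissue in it was not tested. Dusp4 (ENSMUSG00000031530) lies on mm10 chromosome 8, 34807297 to 34819894, and Dusp5 (ENSMUSG00000034765) on chromosome 19, 53529109 to 53542431, both on the plus strand.

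Spry2 encodes a Sprouty protein, an inducible inhibitor of receptor tyrosine kinase signalling to ERK. It had 65.9, 60.6, 67.2, 70.2 and 61.0 CPM in vigabatrin 2344, 2347, 2349, 2428 and 2429, against 64.7, 46.5, 64.2, 60.9 and 69.4 CPM in vehicle 832, 835, 1580, 1582 and 2345. The groups overlapped, and vehicle 835 was the lowest of the 10 libraries. The means were 65.0 ± 4.12 CPM in vigabatrin libraries and 61.1 ± 8.74 CPM in vehicle libraries (SD, n = 5 each; log2 fold change 0.09, SE 0.09), and without vehicle 835 the log2 fold change was 0.00422 (SE 0.05). Spry2 (ENSMUSG00000022114) lies on mm10 chromosome 14, 105891949 to 105896819, on the minus strand.

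Etv4 encodes an ETS-family transcription factor of the PEA3 group that is induced by FGF and ERK signalling. It had 6.89, 6.36, 9.41, 8.86 and 9.93 CPM in vigabatrin 2344, 2347, 2349, 2428 and 2429, against 18.7, 13.4, 16.1, 18.3 and 10.2 CPM in vehicle 832, 835, 1580, 1582 and 2345. The groups did not overlap, but vehicle 2345 stood just above the highest vigabatrin library and well below the other 4 vehicle libraries. The means were 8.29 ± 1.58 CPM in vigabatrin libraries and 15.4 ± 3.57 CPM in vehicle libraries (SD, n = 5 each), a ratio of 0.54 (log2 fold change -0.89, SE 0.18). The log2 fold change was -1.01 (SE 0.15) without vehicle 2345 and -0.30 (SE 0.25) with the range of title numbers as a term. It was close to that of all libraries without the lens-rich ones (-0.87, SE 0.22). Etv4 (ENSMUSG00000017724) lies on mm10 chromosome 11, 101769742 to 101785371, on the minus strand.

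Set beside each other, vehicle 2345 lay above all 5 vigabatrin libraries in 5 of the 6 lower genes (Bdnf, Rem2, Dusp4, Dusp5 and Etv4) and above 4 of them in Vgf. The genes were chosen with a difference known that includes vehicle 2345, so its position is a description and supports nothing. Within the vigabatrin group, 2349 was the highest library for Bdnf, Vgf, Rem2, Dusp4 and Dusp5, and second to 2429 for Etv4. With the range of title numbers as a term all 6 still had negative log2 fold changes, between -0.63 for Rem2 and -0.23 for Dusp5, each resting on that single vehicle library. Without the 4 lens-rich libraries the 6 lay between -0.87 and -0.15.

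**Figure D3:**
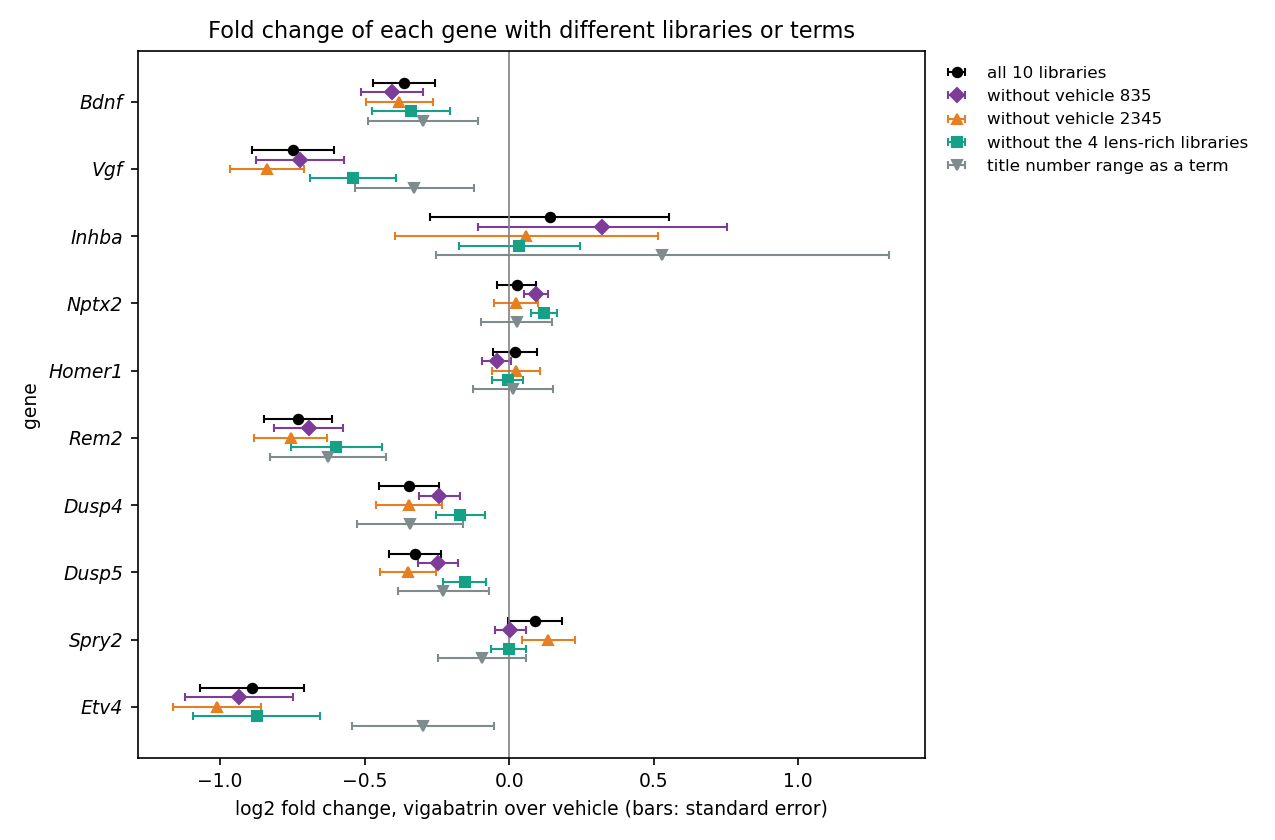
Log2 fold change of each gene, vigabatrin over vehicle (horizontal axis, bars are standard errors), with all 10 libraries and with libraries left out or a term added. The 6 lower genes stay left of 0 in each setting shown, Vgf and Etv4 move to -0.33 and -0.30 once a term for the title numbers is added, and Dusp4 and Dusp5 move to -0.17 and -0.15 without the lens-rich libraries.

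Per kilobase of the deposited gene length, the levels spanned a wide range. In vigabatrin libraries Spry2 had the highest level, at 31.2 ± 1.98 CPM per kilobase, followed by Nptx2 at 21.2 ± 0.986, Dusp4 at 20.7 ± 1.75, Vgf at 16 ± 3.31 and Dusp5 at 9.41 ± 0.568 (SD, n = 5). Homer1 followed at 5.50 ± 0.335, Etv4 at 3.46 ± 0.659, Bdnf at 1.65 ± 0.204, Inhba at 1.65 ± 0.913 and Rem2 at 0.702 ± 0.0757. Nptx2 and Dusp4, and Bdnf and Inhba, differed by less than their spread. In vehicle libraries Spry2 (29.3 ± 4.19), Vgf (26.9 ± 3.88) and Dusp4 (26.2 ± 4.41) did not differ beyond their spread, Nptx2 had 20.9 ± 2.22 and Dusp5 11.8 ± 1.67. Etv4 (6.41 ± 1.49) and Homer1 (5.42 ± 0.575) differed there by less than the SD of Etv4 but more than that of Homer1. Bdnf (2.13 ± 0.249) and Rem2 (1.17 ± 0.115) each differed from Inhba (1.5 ± 0.721) by less than the SD of Inhba but more than their own (SD, n = 5).

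The other genes of the same pathways were followed in 6 lists, and no member of any list passed the adjusted threshold in edgeR's quasi-likelihood test. Of 18 first-wave factors tested, 17 had lower and 1 had a higher mean, with a median log2 fold change of -0.576. At an unadjusted p under 0.05 there were 9 lower and 0 higher, against 3.69% lower and 3.68% higher of all genes, and DESeq2 called Fosb and Npas4, against 0.519% of all genes. Npas4, a neuron-specific factor that controls inhibitory synapses, averaged 4.73 ± 0.847 CPM in vigabatrin libraries and 7.92 ± 0.401 CPM in vehicle libraries (log2 fold change -0.74, SE 0.12, adjusted p = 0.18). Fosb had a log2 fold change of -0.64 (SE 0.14) and Egr3 of -1.02 (SE 0.31). Egr3 was scarce, at 0.491 CPM in vigabatrin and 1.01 CPM in vehicle libraries. Without the 4 lens-rich libraries Npas4 had -0.618, Fosb -0.491 and Egr3 -0.594, and the list's median was -0.237.

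Of 22 other activity-regulated effectors, 17 had lower and 5 higher means, with a median of -0.0785. At an unadjusted p under 0.05 there were 4 lower and 1 higher (3.69% and 3.68% of all genes), and DESeq2 called 0 (0.519% of all genes). Cdkn1a, a cell cycle inhibitor, had a log2 fold change of -2.31 (SE 0.78) that rested on vehicle 835 (-0.615 without it). Gadd45g, a stress- and activity-induced gene, had -0.485 (SE 0.18) and -0.245 without vehicle 835, and Rasgrp1, an exchange factor for Ras, had 0.23 (SE 0.07). Without the 4 lens-rich libraries the median of this list was 0.03.

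Of 15 other genes of ERK feedback and output, 12 had lower and 3 higher means (median -0.107). At an unadjusted p under 0.05 there were 3 lower and 0 higher (3.69% and 3.68% of all genes), and DESeq2 called Spred3 (0.519% of all genes). Spred3, a relative of the Sprouty proteins, averaged 74.7 ± 6.38 CPM in vigabatrin libraries and 94.6 ± 8.86 CPM in vehicle libraries (SD, n = 5 each), a log2 fold change of -0.34 (SE 0.07) with an edgeR adjusted p of 0.338. Spred2 had -0.235 (SE 0.07), and Etv5, of the same PEA3 group as Etv4, had -0.35 (SE 0.13). With the range of title numbers as a term Spred3 had -0.16, Spred2 0.06 and Etv5 0.14.

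Partners of the secreted factors (receptors, processing enzymes and binding proteins) had 10 of 16 lower and 6 higher means, a median of -0.0253 and 0 at an unadjusted p under 0.05. Fst, which encodes follistatin, the activin-binding protein, had 0.475 (SE 0.24) at under 1 CPM, Acvr1b, an activin receptor, 0.06 (SE 0.03) and Ngfr, a neurotrophin receptor, 0.10 (SE 0.08). Of 12 RGK relatives and calcium channel subunits 8 had higher and 4 lower means (median 0.03), 0 at an unadjusted p under 0.05, with -0.29 (SE 0.14) for Rrad, an RGK relative of Rem2, 0.08 (SE 0.04) for Cacna1a and 0.09 (SE 0.05) for Cacnb3. Of 12 synaptic partners 10 had higher and 2 lower means (median 0.08), 2 higher and 0 lower at an unadjusted p under 0.05, with 0.19 (SE 0.07) for the scaffold gene Shank1 and 0.18 (SE 0.08) for Homer2. DESeq2 called 0 in these 3 lists, against 0.519% of all genes. The shares of all genes at an unadjusted p under 0.05 were 3.69% lower and 3.68% higher. With the range of title numbers as a term the medians were -0.00285 for the secreted factors' partners, -0.0486 for the RGK list and -0.00239 for the synaptic list.

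**Figure D4:**
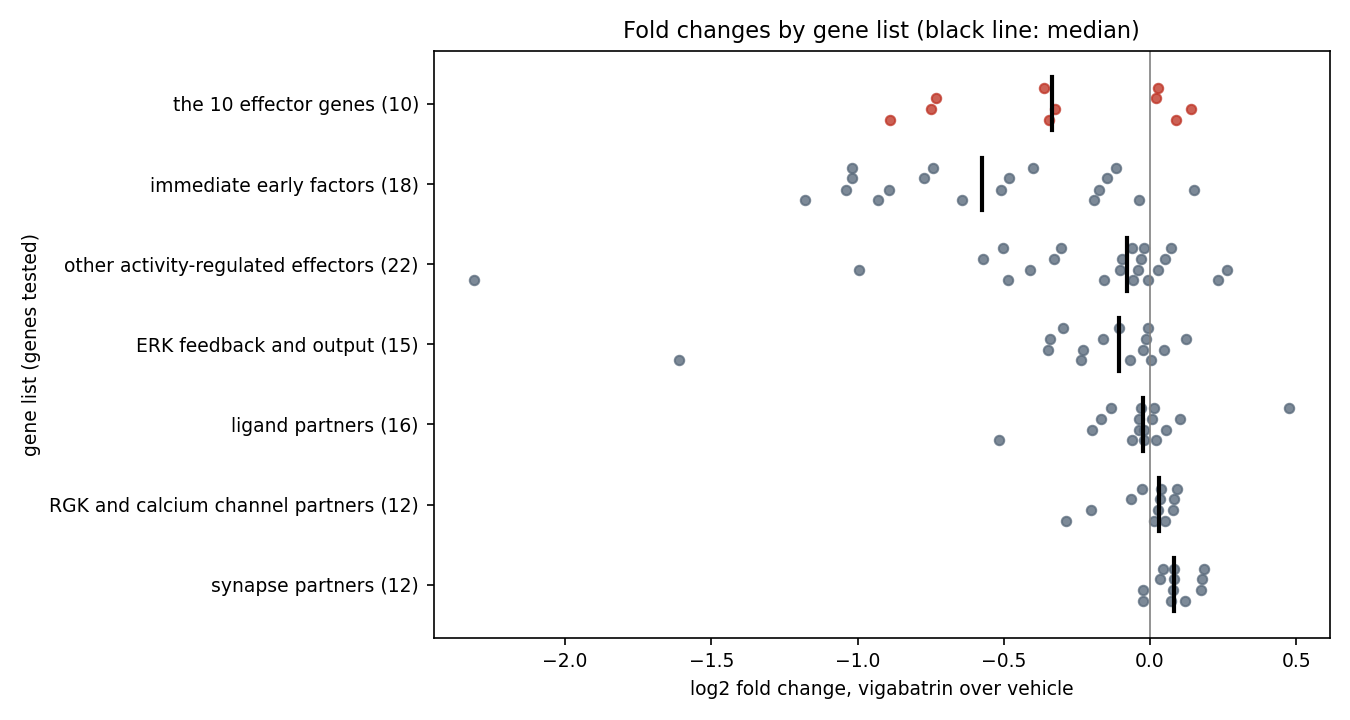
Log2 fold change, vigabatrin over vehicle (horizontal axis), of each gene tested, by gene list, with a black line at each median. The medians are -0.335 for the 10 effector genes, -0.576 for the immediate early factors and 0.08 for the synaptic partners. The lone points at -2.31 and -1.61 are Cdkn1a and Spsb1, which had -0.615 and -0.292 without vehicle 835.

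Of these lists, the contrast of lens-rich with other libraries called Ngfr (log2 fold change 0.21, SE 0.05, adjusted p = 0.026), Il17rd (0.46, 0.12 and 0.0476), Spsb1 (2.20, 0.44 and 0.011), Lmo7 (0.58, 0.09 and 0.0017), Fosl2 (0.98, 0.14 and 0.000944) and Maff (1.06, 0.21 and 0.0106) as higher, in edgeR's quasi-likelihood test. Rasgrp1 was called as lower (-0.20, SE 0.05, adjusted p = 0.0443). Fosl2 averaged 15.6 CPM in lens-rich and 7.52 CPM in the other libraries. Called higher were 1 of 16 partners of the secreted factors, 2 of 15 ERK genes and 2 of 18 first-wave factors. Of 22 other effectors 1 was called higher and 1 lower, and the synaptic and RGK lists had 0. Over all genes tested, this contrast called 6.02% higher and 0.281% lower.

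Gene patterns were also compared within groups. Log2 CPM was centred in each treatment group, which removes the treatment difference, and 13382 other genes with a mean of at least 1 CPM were ranked by Pearson's r over the 10 libraries. The closest to the mean of the 10 genes were Gabrg3 (r = 0.943), a GABA-A receptor subunit gene, Xrcc6 (0.931), Tnfrsf12a (0.899), Nr4a3 (0.886), Ebf4 (0.867), Lrrc8c (0.865), Dhx9 (0.853) and P2rx3 (0.845). That mean is no pattern shared by all 10. In vehicle 835 Dusp4 and Inhba deviated by 0.37 and 0.68, and Homer1 and Spry2 by -0.28 and -0.38. Inhba had the widest deviations of the 10, from -0.952 to 0.891. The closest to single genes were Gls2 for Bdnf (0.933), Jam2 for Vgf (0.973), S100pbp for Rem2 (0.939), Dusp10 for Dusp4 (0.961), Snrpb2 for Dusp5 (0.963), Zfpm2 for Nptx2 (0.974), Zfp697 for Inhba (0.995), BC046251 for Homer1 (0.99), Acox3 for Spry2 (0.992) and B4galt6 for Etv4 (0.911). Spearman's rho was lower for Dusp10 with Dusp4 (0.648), Gls2 with Bdnf (0.709) and P2rx3 with the mean (0.6). For the other genes named it was 0.77 to 0.988. The values of r are the highest of many over few libraries that share depth and carried-over tissue, and they carry no test. Vehicle 835 had the largest deviation from its group for Dusp4 (0.37 on the log2 scale), Dusp5 (0.29), Nptx2 (0.25), Homer1 (-0.28) and Spry2 (-0.38), with vehicle 2345 in that place for Vgf among vehicle libraries (-0.41) and for Etv4 (-0.55).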

How the data were processed

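Per the submitters' processing notes, HTSeq 0.6.1 and the mm10 build were used; the deposited table holds the authors' whole-number counts for each Ensembl gene, along with gene lengths. The sources used here name no annotation release or strand setting. In it, 1 column matched no sample and was left out. Groups were read from the sample titles.

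edgeR 4.0.16 (R 4.3.3) was run on these counts after filterByExpr and TMM scaling. Its quasi-likelihood model held the treatment group alone, and p-values were adjusted by Benjamini-Hochberg over 17435 genes. Standard errors were derived from the fold change and its F statistic. DESeq2 1.42.0 and limma 3.58.1 served as alternatives. For the lens contrast, lens-rich status joined the model. Log2 CPM used a prior count of 2. No pair of libraries in a group agreed within counting noise (chi-square over degrees of freedom 8.46 to 139). Fits were also run on simulated counts with planted changes. The simulation held no carried-over tissue and no difference between title numbers, so it cannot speak for their effect on the fits. No gene of the table overlapped the 10 in position. The median standard error over all genes was 0.09 (log2), and the biological coefficient of variation 0.191.

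The genes, lists and tests were chosen with earlier results of these data known. Named genes are the 10, any listed gene past the threshold, the 3 of smallest p in each list, and the most alike genes, passing over predicted ones. Spsb1, St8sia2 and the listed genes called in the lens contrast were named after their values were seen. Of the genes this rule selects, 1 is not reported here.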

Additional observations from a re-analysis of the deposited data

Results flagged for a closer look

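Vgf in vehicle 2345, at 57.0 CPM, stood apart from the other 4 vehicle libraries, which had 79.0 to 84.3 CPM. Its gap to the nearest library, as a share of the group's range, was 0.803, past a cutoff of 0.71. No other library passed that cutoff among 20 groups of 5 libraries examined (10 genes in vigabatrin and in vehicle libraries), where chance flags about 1 in 20. Vehicle 835 did not pass for Nptx2, at 63.0 CPM against 49.2 to 53.2 CPM in the other vehicle libraries. The log2 fold change of Vgf was -0.84 without vehicle 2345, against -0.75 with all libraries.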

How the results depend on the processing

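The number of genes called was 1 with all libraries and 0 with scaling by library size only, with no filter on low counts, without the 4 lens-rich libraries, within them, and with lens-rich status, lens and pigment epithelium levels or the range of title numbers as terms (edgeR; 641 higher and 643 lower at an unadjusted p under 0.05 in the reported fit). DESeq2's Wald test called 87 and limma-voom with quality weights 3, and leaving out 1 library gave 0 to 39, the 39 without vehicle 2345 (0.221% of genes, Vgf and Etv4 among them). The median log2 fold change of the 10 genes was -0.162 without the 4 lens-rich libraries and -0.477 within them, and the cause was not tested. Under all 22 alternatives Bdnf, Vgf, Rem2, Dusp4, Dusp5 and Etv4 kept a negative sign, whereas Nptx2, Inhba, Homer1 and Spry2 changed sign in 3, 3, 5 and 3 of them. The latter 4 had log2 fold changes of only 0.02 to 0.14 with all libraries. Because the genes were chosen with this difference known and the alternatives reuse the same libraries, the kept signs are no independent support. The rise of Inhba in lens-rich libraries passed under all 13 of its alternatives, with log2 fold changes of 1.23 to 1.38. No paired analysis was possible because the title numbers are not shared between groups. Rem2 and Inhba had few counts, which limits their precision.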
